A study of Mus musculus with 4 samples.

Results

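The miRNAs described here are mmu-miR-451, mmu-miR-144 and mmu-miR-486 (miR-451, miR-144 and miR-486 below), 3 miRNAs of the red blood cell lineage, measured in mouse epidermal cells. They are 3 of 566 mouse miRNA probes, in a table of 618 probes, and were taken from it by name. The set was chosen by the normalized counts themselves, in which miR-451 and miR-144 were lower in the oncogenic than in the normal group, so their differences between the groups are given as a description, with no test. Levels were measured by the nanoString nCounter miRNA assay, in which each miRNA is joined to a colour-coded barcode and single barcodes are counted, and the values are normalized counts. Normal epidermal cells came from adult R26stoprtTA/+ Col-tetO-YAPS127A/+ mice without Cre, in 2 samples. Oncogenic epidermal cells came from adult R26stoprtTA/+ Col-tetO-YAPS127A/+ K14-Cre mice, also in 2 samples, in which the K14 promoter drives Cre in basal keratinocytes and doxycycline then switches on YAP S127A, a constitutively active form of the Hippo pathway coactivator YAP. Both groups drank doxycycline at 1 mg/ml for 8 days. The samples of the second group are called tumours in their titles, while the condition label and the protocol describe epidermal cells. The labels give 6 control animals and do not tie animals to samples, so the spread between samples may be technical. Back skin was treated with trypsin and its epidermal cells scraped off, and the protocol names strainers and a centrifugation but no sort by cell type and no lysis of red blood cells.

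miR-144 and miR-451 are cut from 1 primary transcript, which the erythroid transcription factor GATA1 switches on as red blood cell precursors mature. miR-144 takes the usual route, in which Drosha releases a hairpin and Dicer cuts off its loop. The hairpin of miR-451 is too short for Dicer, and Ago2, the slicer protein, cuts it instead. miR-451 supports late red cell maturation and is among the most abundant miRNAs of circulating red cells. miR-486 comes from a separate locus inside Ank1, which encodes the red cell membrane protein ankyrin, and is made in red cells and also in muscle.

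The mature sequences are shown because the members differ in their seed (bases 2 to 8, in capitals), the part that pairs with targets, and miR-101a-3p because it begins like miR-144. They are RefSeq sequences of the build GRCm38.p6, written 5′ to 3′, and the table names miR-144 without an arm, for which the 3′ arm formerly carried that name.
miR-451a: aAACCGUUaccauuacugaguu
miR-144-3p: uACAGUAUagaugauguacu
miR-101a-3p: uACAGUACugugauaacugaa
They lie on the plus strand at chr11:78073186-78073207 for miR-451a and chr11:78073047-78073066 for miR-144-3p, and on the minus strand at chr4:101346957-101346977 for miR-101a-3p. Among 1679 named mature mouse miRNAs of that table, none shares bases 2 to 8 with miR-451a or with miR-144-3p. Only miR-101a-3p shares bases 2 to 7 with miR-144-3p, and none does with miR-451a. miR-144-3p and miR-101a-3p are identical over their first 7 bases and in 8 of 20 bases compared without gaps.

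The hairpins are shown with the mature miRNA in capitals, since the place of the mature miRNA differs between them. They are whole RefSeq entries, 72 bases for miR-451a and 66 for miR-144, and are not trimmed to the hairpin that Drosha releases. The label pre- marks these entries, so their lengths are not those of the hairpins that Ago2 or Dicer cuts.
pre-miR-451a: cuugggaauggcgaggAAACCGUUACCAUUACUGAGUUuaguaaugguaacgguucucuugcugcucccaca
pre-miR-144: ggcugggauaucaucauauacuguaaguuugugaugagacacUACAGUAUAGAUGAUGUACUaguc
The fold predicted by RNAfold puts 18 bases of miR-451a in the 5′ arm and the last 4 in the loop, so that the mature miRNA fills the whole loop of 4 bases. All 20 bases of miR-144-3p lie in the 3′ arm, outside a loop of 6 bases. The hairpins lie on the same strand, at chr11:78073005-78073070 for miR-144 and chr11:78073170-78073241 for miR-451a, with 99 bases between them. The only other miRNA hairpin of the RefSeq table within 10000 bases is Mir451b, on the opposite strand of Mir451a. Neither hairpin overlaps a protein-coding gene, and the nearest ones on either side are Flot2 and Eral1.

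The whole counts recovered from the normalized values came to between 53709 and 230284 miRNA counts a sample, with the fewest in oncogenic replicate 2. A normalized count of 30, used below as the detection minimum, rests on 34.2, 34.8 and 34.3 counts in normal replicate 1, normal replicate 2 and oncogenic replicate 1, and on 17.0 in oncogenic replicate 2. Background was read from 33 probes for viral miRNAs, which have no target in these mice, and from 6 negative control probes. The highest viral probe stood at 17.6, 27.6, 18.3 and 22.9 normalized counts in the 4 samples in that order, and the median viral probe at between 5.27 and 7.05. The keratinocyte miRNAs miR-205 and miR-203, the defining markers of the labelled cell type, ranked 1 to 3 of 566 in every sample.

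miR-451 had 648 normalized counts in normal replicate 1 and 715 in normal replicate 2, against 15.7 and 21.1 in oncogenic replicates 1 and 2. The groups lay far apart, and the samples of each group lay close together. In the normal samples miR-451 ranked 31 and 27 of 566 miRNAs and was 36.9 and 25.9 times the highest viral probe. In the oncogenic samples it ranked 162 and 130 and lay below the highest viral probe of its sample, at 0.857 and 0.923 times that probe. The counts behind these values were 738 (95% exact Poisson interval 686 to 793) and 830 (774 to 888) in normal and 18 (10.7 to 28.4) and 12 (6.2 to 21.0) in oncogenic cells. These and all other intervals here cover counting error only. Both oncogenic counts exceeded the mean of the negative control probes plus 2 SD, which was 10.8 and 6.6 counts, yet 2 and 1 of 33 viral probes reached them. By the negative control probes miR-451 was thus detected in oncogenic cells, and by the viral probes it was not.

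miR-451 averaged 682 ± 47.1 (SD, n = 2) across the normal and 18.4 ± 3.83 across the oncogenic samples, a log2 difference of -5.15 (oncogenic minus normal, log2 of the normalized count + 1). With every value under 30 raised to 30, the group means of miR-451 on the log2 scale lay 22.7-fold apart, lower in oncogenic cells. With values raised to the highest viral probe of each sample instead, they lay 33.2-fold apart. These folds do not cover counting error, whose upper limits for miR-451 were 24.8 and 36.9 normalized counts in oncogenic replicates 1 and 2. Of all miRNA counts, miR-451 made up 0.390% and 0.532% in normal replicates 1 and 2, and 0.00782% and 0.0223% in oncogenic replicates 1 and 2. In RNA from a mixed preparation, fewer cells of a type and less RNA per cell cannot be told apart.

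miR-144 had 269 normalized counts in normal replicate 1 and 75.8 in normal replicate 2, against 22.7 and 7.05 in oncogenic replicates 1 and 2. The groups did not overlap, but the normal samples differed from each other far more than for miR-451. Behind these values were 306 (95% exact Poisson interval 273 to 342) and 88 (70.6 to 108) counts in normal and 26 (17.0 to 38.1) and 4 (1.09 to 10.2) in oncogenic cells. In the normal samples miR-144 ranked 49 and 80 of 566 and was 15.3 and 2.75 times the highest viral probe. In oncogenic replicate 1 it exceeded all 33 viral probes, at 1.24 times the highest. In oncogenic replicate 2, the shallowest sample, 21 of 33 viral probes and 2 of 6 negative control probes reached it.

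miR-144 averaged 172 ± 136 (SD, n = 2) across the normal and 14.9 ± 11.1 across the oncogenic samples, a log2 difference of -3.38. With values under 30 raised to 30, the group means of miR-144 on the log2 scale lay 4.76-fold apart, lower in oncogenic cells. This fold was 2.53 without normal replicate 1 and 8.96 without normal replicate 2. Normal replicate 1 was 3.55-fold above normal replicate 2. Of 124 miRNAs that reached 30 in at least 2 samples, 7, miR-144 among them, differed by as much or more between the normal samples, where the median absolute log2 difference was 0.40. For miR-451 the difference between the normal samples was -0.14 on the log2 scale, and 100 of the 124 differed by as much or more.

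miR-486 had 24.6 normalized counts in normal replicate 1 and 23.3 in normal replicate 2, against 7.86 and 19.4 in oncogenic replicates 1 and 2. The normal samples lay above the oncogenic samples, but every value was below 30, so no fold is given. The counts behind them were 28 (95% exact Poisson interval 18.6 to 40.5), 27 (17.8 to 39.3), 9 (4.12 to 17.1) and 11 (5.49 to 19.7). As normalized counts the interval of oncogenic replicate 2, 9.67 to 34.7, overlapped those of both normal samples, 16.3 to 35.5 and 15.3 to 33.8, and that of oncogenic replicate 1, 3.59 to 14.9, did not. In normal replicate 1 miR-486 exceeded all viral probes, at 1.40 times the highest. In normal replicate 2 and in the oncogenic samples 2, 14 and 2 of 33 viral probes reached it. With a normal sample and both oncogenic samples inside the range of the viral probes, no difference was detectable above background at this depth.

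Every oncogenic value lay below every normal value in 3 of 3 members, against 38.7% of the 124 miRNAs tested, and above every normal value in 0 of 3, against 12.9%. Since the members were chosen for this contrast, nothing is read from that count. Together the 3 summed to 942 and 814 normalized counts in normal cells, against 46.3 and 47.6 in oncogenic cells.

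**Figure D1:**
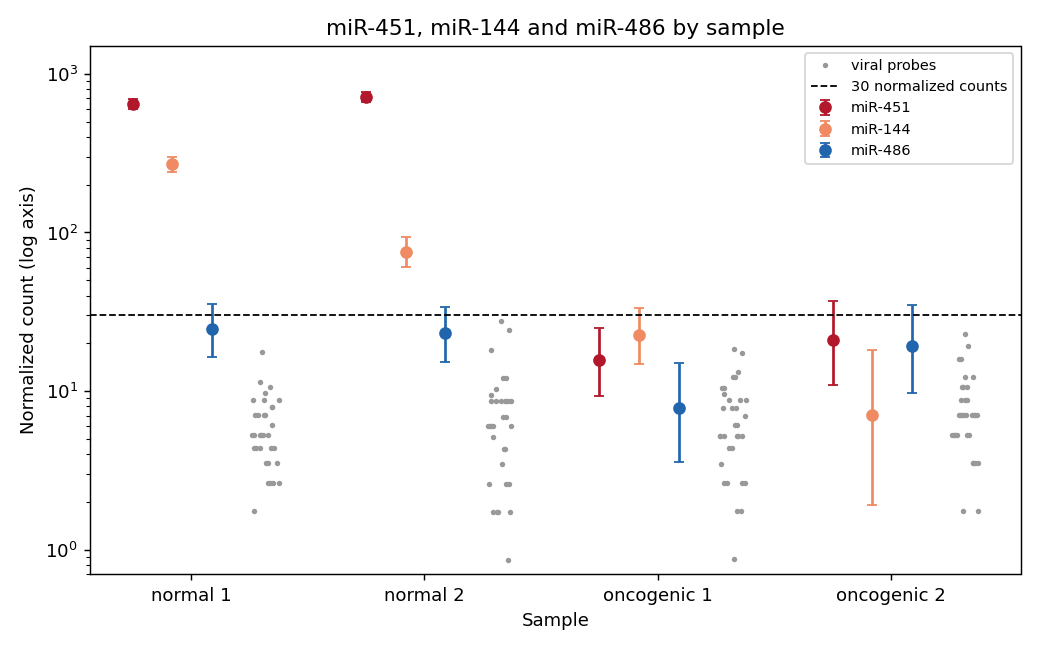
Normalized counts (log axis) of miR-451, miR-144 and miR-486 in each of the 4 samples, with 95% exact Poisson intervals as bars, the 33 viral probes as grey points and a dashed line at 30. miR-451 stood at 648 and 715 in the normal samples and among the highest viral probes in the oncogenic samples, while miR-486 lay below 30 in every sample.

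The ratio of miR-451 to miR-144 within a sample compares the products of the shared transcript and does not change with any scaling between samples. The probes may capture their targets with unequal efficiency, so the ratio is read between samples only and is not a ratio of molecules. It was 2.41 (95% exact binomial interval 2.11 to 2.76) in normal replicate 1 and 9.43 (7.56 to 11.9) in normal replicate 2. The intervals do not overlap, and the ratio was 3.91-fold higher in normal replicate 2 as miR-144 was lower there and miR-451 nearly level. In the oncogenic samples the ratio was 0.692 (0.358 to 1.31) and 3 (0.909 to 12.8).

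The oncogenic ratios rest on 18 counts over 26 and on 12 over 4, and there at least one of the miRNAs of each ratio lay at the level of viral probes. With miR-144 raised to the highest viral probe where it lay lower, the ratio of oncogenic replicate 2 was 0.923 in place of 3. With the mean of the negative control probes subtracted it was 7. The spread between the samples of a group, an SD of 1.39 in normal and 1.5 in oncogenic cells on the log2 scale, was close in size to the difference of the group means, -1.73. With miR-144 raised to the highest viral probe the difference was -2.58, and with both miRNAs raised, a setting chosen after seeing the data, it was -2.41, with ratios of 0.808 and 1 in the oncogenic samples, so that the groups no longer overlapped. Raised values are bounds on both sides of the ratio, so these give no measured ratio for oncogenic cells, and whether it differed from that of normal cells depended on how background was treated.

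The gap between the normal samples was set beside other miRNAs that neighbour each other, a comparison chosen after the ratio was known. Of the 124 miRNAs, 99 were matched by name to the RefSeq table, and 30 other pairs had hairpins within 10000 bases on 1 strand and at least 30 counts of each member in both normal samples. The ratio of these pairs differed between the normal samples by a median of 1.40-fold. None of the 30 differed by as much as the 3.91-fold of miR-451 and miR-144, and the nearest were miR-29a with miR-29b, at 3.19-fold, and miR-193b with miR-365, at 2.98-fold. The ratio of miR-200b to miR-429, neighbours and miRNAs of epithelial cells, differed by 1.00-fold, and that of miR-15b to miR-16 by 1.15-fold. Some pairs, such as those of let-7 and miR-16, also have copies elsewhere in the genome, and pairs that share a miRNA are not independent.

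**Figure D2:**
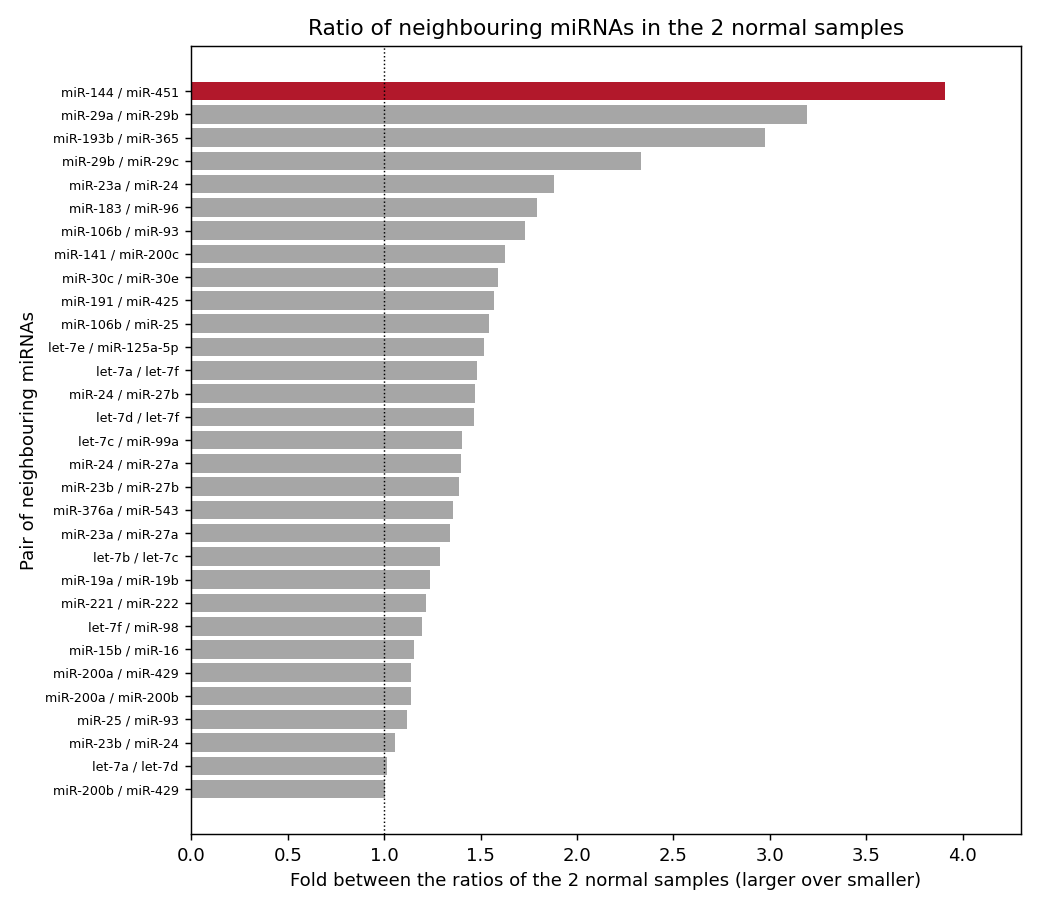
Fold between the 2 normal samples in the ratio of neighbouring miRNAs, larger over smaller, for 31 pairs with hairpins within 10000 bases on 1 strand. The bar for miR-144 with miR-451, at 3.91, is the longest, the dotted line marks equal ratios, and the median of the other 30 pairs is 1.40.

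miR-451 was also set against miR-16, another abundant miRNA of red blood cells that many other cell types make. The ratio of miR-451 to miR-16 was 0.246 and 0.234 in normal against 0.00916 and 0.0139 in oncogenic cells. The ratio of normal replicate 2 was 0.95 times that of normal replicate 1, and both lay above both oncogenic samples. With miR-451 raised to the highest viral probe, the group means of this ratio lay 18.9-fold apart on the log2 scale, higher in normal cells. Against miR-23a, which is used as the stable partner of miR-451 when red cell lysis is checked in plasma, the ratio was 0.0882 and 0.144 in normal against 0.00416 and 0.0143 in oncogenic cells. With miR-451 raised in the same way, the group means of this ratio lay 13-fold apart on the log2 scale. Single samples lay nearer, at 0.0882 in normal replicate 1 and 0.0143 in oncogenic replicate 2. miR-23a itself stood lower in the oncogenic samples, at 3777 and 1480 normalized counts against 7349 and 4959. Against miR-205, the abundant keratinocyte miRNA, the ratio was 27.9 and 17.7 per 1000 in normal against 0.608 and 0.916 per 1000 in oncogenic cells. In each of these ratios the groups lay apart whatever the scaling between samples, since the scaling cancels.

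**Figure D3:**
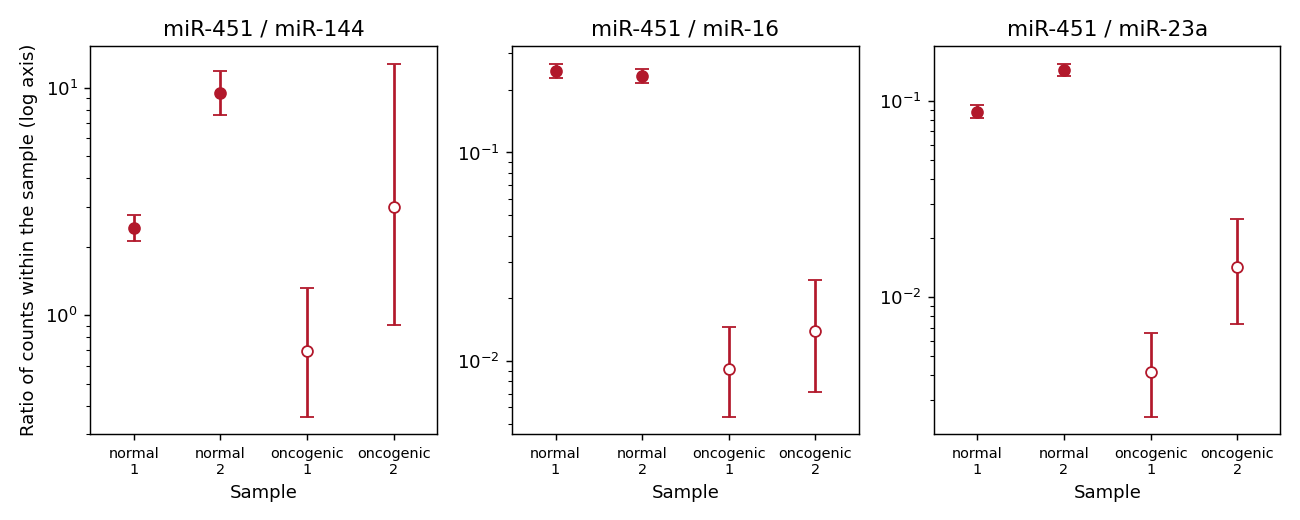
Ratio of the counts of miR-451 to those of miR-144, miR-16 and miR-23a within each sample, on log axes, with 95% exact binomial intervals as bars, filled points for normal and open points for oncogenic samples. The ratio to miR-144 differed 3.91-fold between the normal samples and the groups overlapped, while the ratio to miR-16 was 0.246 and 0.234 in normal and at most 0.0139 in oncogenic cells.

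Of 17 other miRNAs reported as abundant in red blood cells, 13 were tested and 0 rose or fell (limma, Benjamini-Hochberg adjustment over 124 miRNAs), against 4.03% of all tested miRNAs that fell and 0% that rose. The 124 include miR-451 and miR-144, which were chosen for this contrast, so the adjustment and all shares of tested miRNAs include them. With the replicate number as a block, 2 of the 13 were called lower, against 24 of all 124. These were let-7b (limma adjusted p = 0.0369) and miR-25 (limma adjusted p = 0.0196). Without oncogenic replicate 1 their log2 differences were -1.28 and -1.11. At an unadjusted p under 0.05, 2 of the 13 were lower and 0 higher, against 21% and 3.23% of all tested. Differences were negative for 9 and positive for 4, with a median of -0.23 against -0.19 over all 124. The split depended on the scaling: the list's median was 0.31 with each sample centred on its median, where that of all miRNAs was 0.34, and -0.64 with scaling to the mRNA probes, where it was -0.60.

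miR-16, which restrains the cell cycle, stood at 2636 and 3059 normalized counts in normal against 1716 and 1520 in oncogenic cells. Its log2 difference was -0.81 (SE 0.25, limma adjusted p = 0.152), and the groups did not overlap. let-7b, of the growth-opposing let-7 family, was the most abundant of the list, at 7422 and 5479 against 4230 and 2621 (log2 difference -0.94, SE 0.37, adjusted p = 0.213). miR-25, which lies in an intron of Mcm7, stood at 935 and 1028 in normal against 475 and 453 in oncogenic cells. Its log2 difference was -1.08 (SE 0.22, limma adjusted p = 0.0998). let-7b, miR-16 and miR-25 kept negative differences under all 7 other scalings, and none passed the threshold with all 4 samples and no block.

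Others of the list lay closer together in the groups on the deposited scale. miR-22 stood at 938 and 846 in normal against 993 and 877 in oncogenic cells, and miR-15b at 607 and 813 against 723 and 1036. miR-15a, at 717 and 729 against 592 and 643, had a log2 difference of -0.23 (SE 0.22). miR-103, miR-15b, miR-210 and miR-22 had the positive differences, of which that of miR-103 was the highest at 0.33 (SE 0.69). The 4 not tested, miR-92a, miR-185, miR-363 and miR-182, lay below 30 in all samples except miR-182 at 33.2 in oncogenic replicate 1, and miR-92a, known as abundant in red cells, was at 6.03 to 11.4 normalized counts in all 4 samples. In sum over the list the level was 14166 and 13381 normalized counts in normal against 9982 and 8067 in oncogenic cells. This sum depends on the deposited scaling, and the miRNA total differed between samples, from 53709 counts in oncogenic replicate 2 to 230284 in oncogenic replicate 1. No group difference is read from it.

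**Figure D4:**
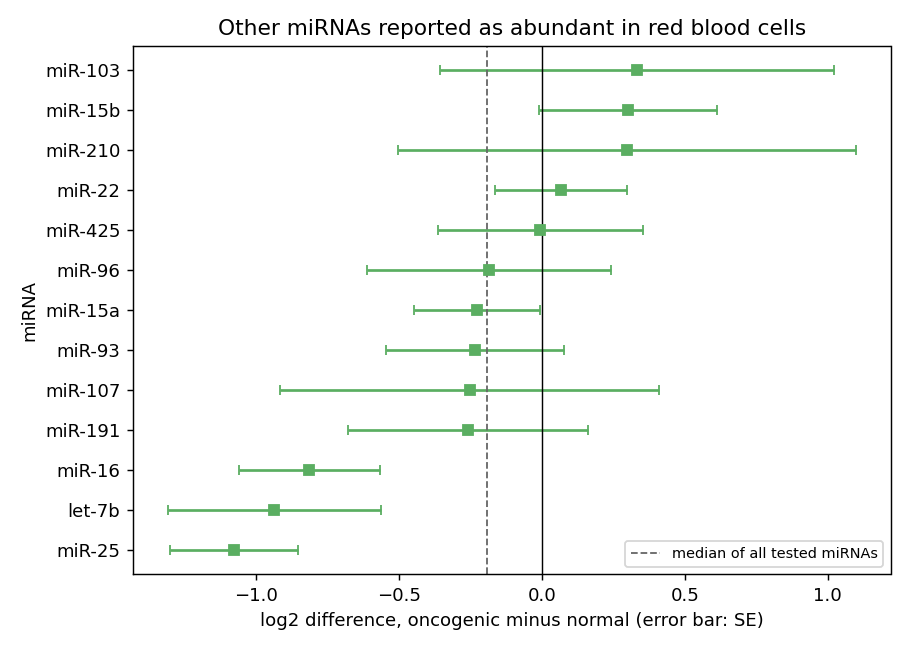
Log2 differences (oncogenic minus normal, log2 of the normalized count + 1) with SE as bars for the 13 tested of 17 other miRNAs reported as abundant in red blood cells, and the median of all 124 tested miRNAs, -0.19, as a dashed line. The values run from -1.08 for miR-25 to 0.33 for miR-103, none past the adjusted threshold.

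The marker miRNAs of other cells that such a preparation could hold moved as follows. The endothelial miR-126-3p and miR-126-5p summed to 223 and 400 normalized counts in normal against 11.4 and 17.6 in oncogenic cells. Both lay below the highest viral probe in each oncogenic sample, miR-126-3p at 8.74 and 12.3, so these oncogenic sums are at background. miR-126-3p, the 1 of 2 that reached 30 in at least 2 samples, did so in the normal samples only. Its log2 difference of -4.61 (SE 0.47) rests on background values on the oncogenic side, and no test is read from it. Of 6 white blood cell miRNAs 5 were tested, 1 was called lower and 0 higher, against 4.03% and 0% of all tested miRNAs. The 1 called was miR-146a, which dampens innate immune signalling, at 193 and 171 normalized counts in normal against 35.8 and 44.0 in oncogenic cells (log2 difference -2.17, SE 0.33, limma adjusted p = 0.0472). That value lies close to the threshold of 0.05. Its adjustment includes miR-451 and miR-144, which were chosen for this contrast, so the call does not stand apart from them. Also lower in both oncogenic samples than in both normal samples, as were 38.7% of all tested, were miR-142-3p, miR-150 and miR-223. Their log2 differences were -1.51 (SE 0.41), -0.86 (SE 0.44) and -0.22 (SE 0.36). Of these, miR-142-3p and miR-223 reached 30 in the normal samples only, so no test is read from them. Members of this list stood in opposite orders: miR-155 had a log2 difference of 0.30 (SE 0.33), and miR-142-5p, not tested, was at 10.5 and 15.5 in normal against 18.3 and 28.2 in oncogenic cells. miR-142-5p exceeded the highest viral probe of the sample in only 1 sample. The list summed to 621 and 492 in normal against 334 and 440 in oncogenic cells on the deposited scale. These sums depend on that scaling, and no group difference is read from them. The 7 muscle miRNAs, relevant because muscle makes miR-486, lay below 30 in every sample and below the highest viral probe of the sample, and summed to 63.3 and 73.2 in normal against 55.9 and 65.2 in oncogenic cells. The 2 keratinocyte miRNAs summed to 33512 and 50742 in normal against 35808 and 31307 in oncogenic cells. No marker was listed at 0. The part of these cells in the levels of miR-451 and miR-144 was not tested.

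**Figure D5:**
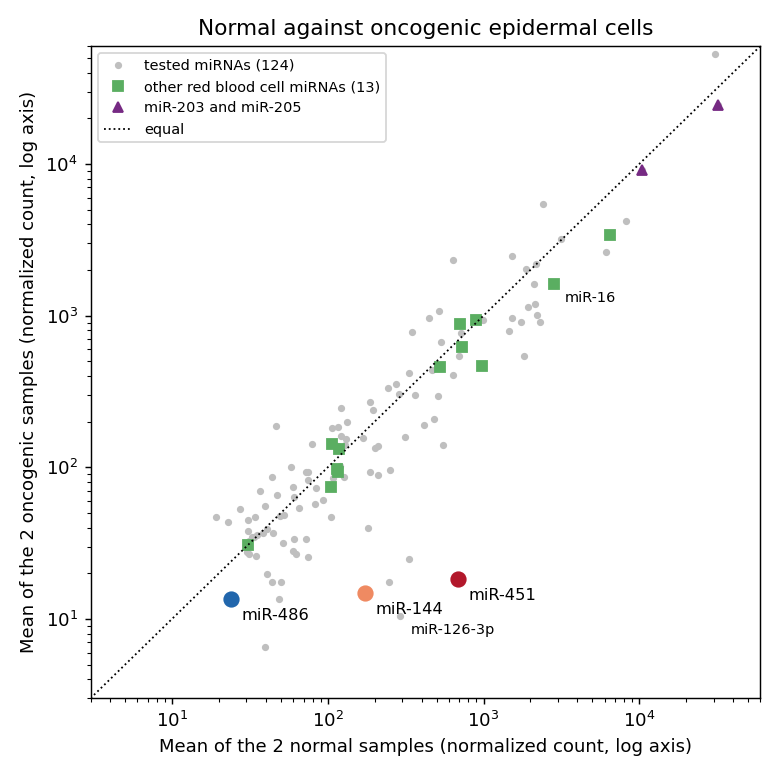
Mean normalized count of the 2 oncogenic against the 2 normal samples (log axes) for the 124 tested miRNAs, with miR-451, miR-144, miR-486 (not tested), the other red blood cell miRNAs and the keratinocyte miR-203 and miR-205 marked. miR-451, at 682 against 18.4, lies below the line of equality with miR-126-3p and miR-144, while the 13 other red blood cell miRNAs lie nearer to it, between log2 differences of -1.08 and 0.33.

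Among the 122 other tested miRNAs, the profile over the 4 samples closest to that of miR-451 belonged to miR-126-3p, with a root mean square difference of 0.37 on the log2 scale after each miRNA was centred on its own mean. The median over the 122 was 2.53. The next were miR-181a (0.84), known from lymphocyte development, miR-204 (0.88), abundant in pigment cells, miR-199a-3p (1.43), a miRNA of mesenchymal cells, and miR-146a (1.49). miR-144 itself lay at 1.32, farther from miR-451 than miR-126-3p, miR-181a and miR-204. The miRNAs closest to miR-144 were miR-204 (0.56), miR-199a-3p (0.72), miR-181a (0.80), miR-26b (1.00) and miR-29c (1.00), against a median of 1.85. miR-204, at 331 and 164 normalized counts in normal against 19.2 and 15.9 in oncogenic cells, shared with miR-144 the higher value in normal replicate 1, whereas miR-126-3p was lower there, at 205 against 376. In both oncogenic samples miR-451, miR-126-3p and miR-199a-3p lay below the highest viral probe. In oncogenic replicate 2 so did miR-144, miR-181a and miR-204, so background enters these distances. These likenesses are over 4 samples and describe them.

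miR-101a, which shares its first 7 bases with miR-144-3p, stood at 57.1 and 43.1 normalized counts in normal against 26.2 and 8.81 in oncogenic cells (log2 difference -1.63, SE 0.62). It reached 30 in the normal samples only, so no test is read from it. Its value in oncogenic replicate 2 lay below the highest viral probe there, at 22.9. Whether the probe for one reads the other was not tested.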

How the data were processed

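The labels name the assay, and the 4 deposited signal columns, 1 per sample, are normalized by the authors by a method not given in the sources used here. In 603 probes (miRNA, mRNA, viral) 100% of values were whole counts, within 0.1 count, after division by 1 factor per sample (0.878, 0.861, 0.874 and 1.76). Control probes are unscaled. Neither pair of replicates held the same counts within sampling noise, so none was taken as 1 library deposited again, which does not show that samples came from separate animals. Tests used limma (version 3.58.1, R 4.3.3, lmFit, eBayes with trend, two-sided) on log2(value + 1) for the 124 miRNAs reaching 30 in 2 samples, Benjamini-Hochberg adjusted, with 0.05 as the threshold. They were tried on simulated counts with planted changes far larger than the differences of the red cell list. That trial does not show whether changes of the size seen in the list would be found. The recovered counts were also tested with edgeR (version 4.0.16) and DESeq2 (version 1.42.0). Hairpins were folded with RNAfold (version 2.7.2). Members and lists were chosen with earlier results of these data known. Named miRNAs are the members, the 5 nearest in profile to miR-451 and to miR-144, members of the red cell and marker lists, and miRNAs sharing bases 2 to 7 with a member. miR-29a, miR-29b, miR-193b, miR-365, miR-200b and miR-429 were named after their values were seen.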

Additional observations from a re-analysis of the deposited data

How the results depend on the processing

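The log2 difference of miR-451 was negative under every alternative run: -4.62 with each sample centred on its median, -4.76 with scaling to the 100 most abundant miRNAs, -5.54 when scaled to mRNA and -5.39 to positive control probes, -4.61 and -3.88 with pseudocounts of 10 and 30, and -5.49 with the negative control mean subtracted. Its fold with low values raised was 18.8 after centring, with 30 as the floor, and 33.2 with the highest viral probe as the floor. miR-144 and miR-486 also stayed negative, miR-144 reaching -2.01 with a pseudocount of 30. The difference of the ratio of miR-451 to miR-144 ran from -2.78 to -0.67 when 1 sample was left out. The median of the other red blood cell miRNAs changed sign, to 0.31 after centring, 0.17 with the 100 most abundant miRNAs, 0.20 with quantile normalization, 0.16 in edgeR and 0.096 in DESeq2, and was -0.64 with the mRNA probes. The number of miRNAs lower among 124, miR-451 and miR-144 included, was 5, and 3 with positive control or quantile scaling, 1 in edgeR and 8 in DESeq2. The number higher was 0, and 3 after centring, with the 100 most abundant miRNAs or in DESeq2. Leaving out 1 sample gave 1 to 25 lower, 0 to 2 higher, and 0 to 2 lower and 0 higher of the red cell list, the highest numbers lower without oncogenic replicate 1, where let-7b and miR-25 passed. With the replicate number as a block (replicate block), 24 were lower and 6 higher, and let-7b and miR-25 of the list were lower. Same-numbered samples deviated together (correlation 0.66), but with 2 pairs the number is not shown to mark a shared source. The cause of these shifts was not tested. A single count is worth 1.76 normalized counts in oncogenic replicate 2, which limits what can be read of miR-144 and miR-486 there.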
